A study of Homo sapiens with 6 samples.

Results

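The transcriptome of MCF10A eGFP cells was measured in 2 libraries, and these replicates of 1 line were set against each other gene by gene. Of the 20802 genes on the amplicon panel, the 9220 with a mean of at least 50 reads over eGFP replicate 1, eGFP replicate 2 and WT replicate 2 were compared. The genes described here were selected on the ratio between the eGFP libraries, so that ratio is a description, and the values in WT replicate 2 say on which side the departure lies. Each side is 1 library, so no test was made, no replicate error exists, and each fold is given with an exact 95% counting interval that covers counting error only. Of the gene lists examined, sterol synthesis lay furthest above and the ATF4 amino acid response furthest below the median of all genes. At least 2-fold higher in eGFP replicate 1 were 16 of 22 sterol synthesis genes, 8 of 15 fatty acid synthesis genes, 17 of 39 histones, 9 of 20 heat shock proteins, 4 of 4 metallothioneins and 11 of 25 hypoxia-induced genes. At least 2-fold lower were 22 of 27 genes of the ATF4 amino acid response, 7 of 20 aminoacyl-tRNA synthetases and 7 of 25 genes of the unfolded protein response. Of the 9220 genes compared, 4.11% were higher and 7.14% lower by that size.

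MCF10A is a benign, non-tumorigenic human mammary epithelial cell line. MCF10A WT is the parental line without a transgene. MCF10A eGFP is the transfection control: it stably carries a vector that encodes enhanced green fluorescent protein, and its cells were kept under G418 selection and sorted for fluorescence. Whether it is a pool or 1 clone is not stated. MCF10A GIRK1 was made in the same way with a vector that encodes the potassium channel subunit GIRK1, the product of KCNJ3, along with eGFP. The series holds 2 libraries of each of these 3 lines. Nothing in the labels says whether the libraries of a line came from separate cultures, passages or RNA preparations.

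Several of the genes that separated the replicates belong to well known feedback programmes. SREBP2 is a membrane-bound transcription factor that is released from the endoplasmic reticulum when sterols are scarce. It then induces the enzymes of cholesterol synthesis, while the related SREBP1 drives fatty acid synthesis. ATF4 is a transcription factor whose translation increases when a kinase senses missing amino acids, unfolded proteins or other stress and phosphorylates the initiation factor eIF2 alpha. Its targets include amino acid transporters, enzymes of serine and asparagine synthesis and aminoacyl-tRNA synthetases.

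In the promoters of these genes, short sequence cores mark sites that such factors are known to use. RefSeq promoter windows (GRCh38.p14, 250 bases before to 50 bases after the start site) were matched for 7541 of the 9220 genes and searched on both strands. The C/EBP-ATF core TGATGNAA, a site type bound by ATF4 with a C/EBP partner, was found in 1.64% of these windows and in 5 of 22 windows (22.7%) of the ATF4 list. It was also found in 4.02% of the 523 windows of genes at least 2-fold lower in eGFP replicate 1 and in 1.05% of the 285 windows of genes at least 2-fold higher. Among all 27305 RefSeq promoter windows, whether or not the gene was kept, the share was 3.67%, near that of the lower genes. The 3 stretches printed here are from the list members with the largest ratios whose stretch around the match ends before the start site. Capitals mark the match, which is in reverse orientation in CHAC1. The stretches are chr15:40953237-40953294 on the plus strand for CHAC1, chr7:97872444-97872501 on the minus strand for ASNS and chr1:212565191-212565248 on the plus strand for ATF3.
CHAC1: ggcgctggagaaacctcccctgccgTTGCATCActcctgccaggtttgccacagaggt
ASNS: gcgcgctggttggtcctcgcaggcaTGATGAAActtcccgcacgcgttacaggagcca
ATF3: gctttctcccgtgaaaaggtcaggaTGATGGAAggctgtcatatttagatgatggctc
The matches begin 209, 68 and 191 bases before the start site of CHAC1, ASNS and ATF3.

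For the sterol list, the sterol regulatory element core TCACNCCA was found in 3 of 16 matched windows (18.8%), against 3.16% of the windows of all genes kept. The CCAAT box, the site of the factor NF-Y that binds beside SREBP2 in many sterol genes, was found in 13 of 16 windows (81.2%), against 37.5% of all genes kept. The letters CCAAT are common in promoters, and 48.4% of the windows of genes at least 2-fold higher in eGFP replicate 1 and 34.6% of those lower held them. The sterol regulatory core was in 5.26% of the higher and 3.44% of the lower windows, and in 3.93% of all 27305 RefSeq windows. Among members with a matched window in which the stretch around the box ends before the start site, the 4 with the largest ratios are shown, with the CCAAT box nearest to the start site in capitals (reverse orientation in INSIG1 and HMGCS1), and MSMO1 with its sterol regulatory core. They lie at chr7:155297683-155297737 (plus strand), chr5:43313483-43313537 (minus), chr16:88663147-88663201 (minus), chrX:152830954-152831008 (plus) and chr4:165327488-165327545 (plus), in the order printed.
INSIG1: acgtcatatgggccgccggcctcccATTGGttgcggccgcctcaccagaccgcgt
HMGCS1: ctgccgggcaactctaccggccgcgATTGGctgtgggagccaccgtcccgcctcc
MVD: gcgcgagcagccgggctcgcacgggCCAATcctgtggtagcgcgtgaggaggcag
NSDHL: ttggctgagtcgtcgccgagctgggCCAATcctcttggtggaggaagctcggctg
MSMO1: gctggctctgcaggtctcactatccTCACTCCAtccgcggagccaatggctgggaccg
A match in these windows is a description of letters, and binding was not measured in these libraries.

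The libraries differed in depth. eGFP replicate 1 held 5126930 reads, eGFP replicate 2 held 10233974 and WT replicate 2 held 16040556, so that 3 reads corresponded to 0.585, 0.293 and 0.187 RPM, the reads of an amplicon scaled to the total of its library. The 10 most abundant genes took 17.7% of the reads in eGFP replicate 1, against 14.2% and 14.3% in the other two libraries. KCNJ3 had 0 reads in each of the 3 libraries compared and 2408 and 3677 reads in the GIRK1 libraries. The basal epithelial marker keratin KRT5 was at 10660 RPM in eGFP replicate 1, 5741 RPM in eGFP replicate 2 and 3862 RPM in WT replicate 2. The basal markers did not all move the same way. KRT14 and ITGB4 were also higher in eGFP replicate 1 than in eGFP replicate 2, with log2 ratios of 0.82 and 0.56. CDH3 and KRT17 were lower, with log2 ratios of -0.48 and -0.16. The luminal markers ESR1, PGR, TFF1 and KRT19 and the leukocyte marker PTPRC had 0 reads in these 3 libraries, and the basal marker TP63 also had 0 reads. The other luminal markers, GATA3 and FOXA1, did have reads. GATA3 was at 17.7, 15.0 and 19.2 RPM in eGFP replicate 1, eGFP replicate 2 and WT replicate 2. FOXA1 was at 1.95, 4.49 and 3.18 RPM in the same order. The summed basal marker level was 13650, 8225 and 7079 RPM in eGFP replicate 1, eGFP replicate 2 and WT replicate 2, most of it from KRT5 in each library. The fibroblast, endothelial and leukocyte markers summed to 10.7, 3.32 and 45.4 RPM in eGFP replicate 1 and to 8.60, 3.71 and 44.1 RPM in eGFP replicate 2, the leukocyte sum coming from CD14 and CD68. WT replicate 1 stood apart from the other 5 libraries, with a summed luminal marker level of 7937 RPM against 16.8 to 22.4 RPM, and was not used as a reference.

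How far apart the replicates were was read from the log2 ratio of RPM, with 0.5 reads added to each count. Of the 9220 genes, 379 (4.11%) were at least 2-fold higher in eGFP replicate 1 and 658 (7.14%) at least 2-fold lower, which is 1037 genes (11.2%) in all. In the GIRK1 pair, the same size was reached by 184 genes (2.0%). The standard deviation of the log2 ratio over genes was 0.67 in the eGFP pair and 0.37 in the GIRK1 pair. A difference of at least 4-fold was reached by 126 genes and of at least 8-fold by 35. For 427 of the 1037 genes (41.2%) the whole counting interval lay past 2-fold, 201 of them higher and 226 lower in eGFP replicate 1.

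**Figure D1:**
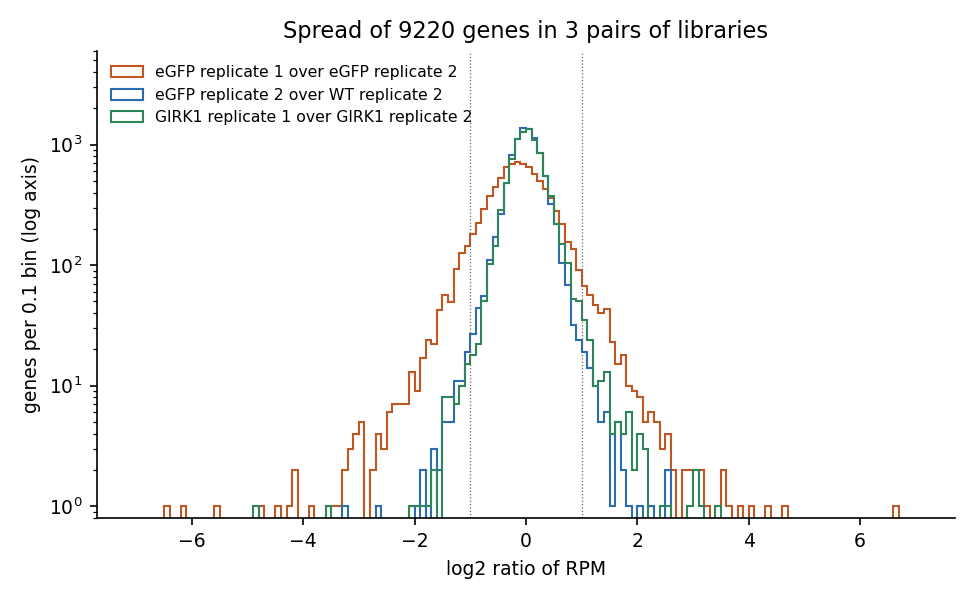
Number of genes (log axis) in bins of the log2 ratio of RPM for eGFP replicate 1 over eGFP replicate 2, eGFP replicate 2 over WT replicate 2, and GIRK1 replicate 1 over replicate 2, each over 9220 genes; dotted lines mark 2-fold. The eGFP pair is the widest, with a standard deviation of 0.67 against 0.34 and 0.37.

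The median log2 ratio of all genes was -0.12, so that most genes lay slightly lower per total read in eGFP replicate 1. Scaling by TMM factors brought this median to 0.00 and split the calls into 502 higher and 477 lower genes (51.3% higher, against 36.5% with RPM). DESeq2 size factors gave 502 and 480 (51.1% higher). The balance between higher and lower genes therefore depends on the scaling, and list medians are to be read against -0.12.

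The question of which replicate departs was answered with WT replicate 2 as the reference. Between eGFP replicate 1 and WT replicate 2, 14.1% of the genes were at least 2-fold apart, and between eGFP replicate 2 and WT replicate 2 1.40% were. Of the 1037 genes that separated the eGFP libraries, 769 (74.2%) were at least 2-fold from WT replicate 2 in eGFP replicate 1 only, 265 of them above and 504 below. In 17 genes (1.64%) only eGFP replicate 2 was at least 2-fold away. Both libraries lay at least 2-fold from the reference on the same side in 36 genes, with eGFP replicate 1 further away in 36 of the 36, and on opposite sides in 1 gene, STC1. In the remaining 214 genes neither library was 2-fold from the reference. eGFP replicate 2 was the nearer library in 983 of 1037 genes (94.8%).

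**Figure D2:**
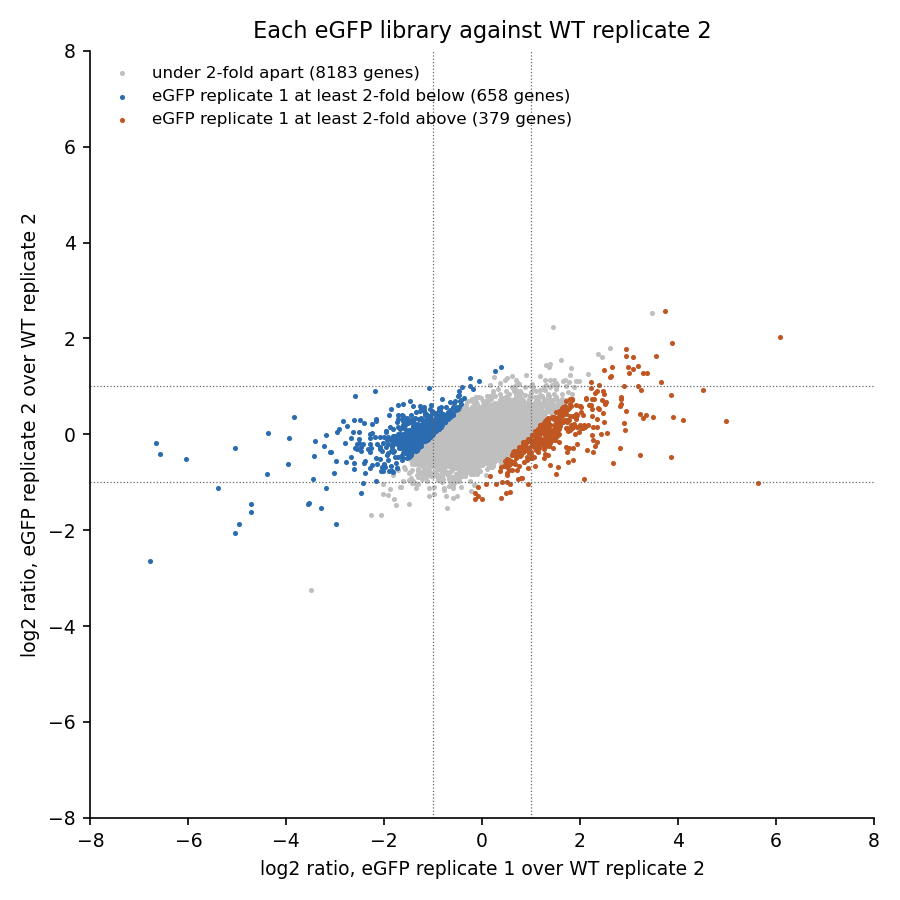
Each point is a gene of the 9220 compared, with the log2 ratio of eGFP replicate 1 to WT replicate 2 on the horizontal axis and of eGFP replicate 2 to WT replicate 2 on the vertical axis; dotted lines mark 2-fold. The 379 genes higher in eGFP replicate 1 (orange) and the 658 lower (blue) spread along the horizontal axis and mostly stay between the horizontal dotted lines. CDA, with 0 reads in WT replicate 2, lies beyond both axes and is not drawn.

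The GIRK1 libraries entered neither the selection nor the reference. In 664 of the 769 genes in which only eGFP replicate 1 departed (86.3%), both GIRK1 libraries lay within 2-fold of WT replicate 2, against 92.2% of all genes kept. eGFP replicate 1 was at least 2-fold above each of eGFP replicate 2, WT replicate 2 and both GIRK1 libraries in 230 genes (2.49% of all genes kept) and at least 2-fold below each in 340 (3.69%). The same counts for eGFP replicate 2 were 1 and 4. Whether the difference arose in culture, RNA preparation or library preparation was not tested, and these cannot be told apart with 1 library a side.

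Sterol synthesis showed the largest positive median of the 44 gene lists examined. Of 22 members with enough reads, 16 were at least 2-fold higher in eGFP replicate 1 and 0 lower, with a median log2 ratio of 1.64. Against WT replicate 2 the median was 2.01 in eGFP replicate 1 and 0.28 in eGFP replicate 2, and between the GIRK1 libraries it was 0.06. The 16 higher members include enzymes of early and of late steps of the pathway, but not of every step. HMGCS1, the synthase that makes HMG-CoA, was at 506 RPM in eGFP replicate 1, 43.5 in eGFP replicate 2, 34.0 in WT replicate 2, and 45.8 and 57.3 in the GIRK1 libraries. It was therefore 11.6-fold higher in eGFP replicate 1 than in eGFP replicate 2 (95% counting interval 10.5 to 12.9). The other 4 libraries lay close together and far below eGFP replicate 1.

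INSIG1, the endoplasmic reticulum protein that holds SREBP back when sterols are plentiful and is itself an SREBP target, was at 296 RPM in eGFP replicate 1, 21.2 in eGFP replicate 2, 17.3 in WT replicate 2, and 22.7 and 19.6 in the GIRK1 libraries. The fold was 14.0 (12.1 to 16.2). IDI1, the isopentenyl diphosphate isomerase, was at 537 RPM in eGFP replicate 1, 61.3 in eGFP replicate 2, 48.0 in WT replicate 2, and 77.4 and 60.0 in the GIRK1 libraries, a fold of 8.76 (8.03 to 9.57). For both genes eGFP replicate 1 stood alone and the other 4 libraries formed a narrow range. MVD, which decarboxylates mevalonate diphosphate, was at 386 and 46.7 RPM in eGFP replicates 1 and 2 and at 26.6 RPM in WT replicate 2. NSDHL and HSD17B7, both enzymes of C4 demethylation of sterols, were 6.23-fold (5.28 to 7.39) and 4.80-fold (4.04 to 5.72) higher. FDPS, the farnesyl diphosphate synthase, was at 729, 158 and 101 RPM in eGFP replicate 1, eGFP replicate 2 and WT replicate 2, and ACAT2, the cytosolic thiolase, at 441, 107 and 79.1 RPM.

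The sterol list also had members within 2-fold. PMVK had a log2 ratio of -0.01, CYP51A1 of 0.26 and the factor gene SREBF2 itself of 0.35. Of the members under the read minimum, LSS had 53, 11 and 30 reads in eGFP replicate 1, eGFP replicate 2 and WT replicate 2. SC5D was matched to no amplicon.

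Of 15 fatty acid synthesis genes kept, 8 were at least 2-fold higher in eGFP replicate 1 and 0 lower, with a median of 1.10 (1.38 and 0.06 against WT replicate 2 for eGFP replicates 1 and 2). ACLY, which makes cytosolic acetyl-CoA from citrate, was at 936 RPM in eGFP replicate 1, 121 in eGFP replicate 2, 95.7 in WT replicate 2, and 123 and 109 in the GIRK1 libraries, a fold of 7.71 (7.24 to 8.21). FASN, the fatty acid synthase, was at 951 RPM in eGFP replicate 1 and between 169 and 176 RPM in the other 4 libraries, a fold of 5.39 (5.10 to 5.69). The stearoyl-CoA desaturase gene SCD was at 2777 RPM in eGFP replicate 1 and 762 RPM in eGFP replicate 2. It stood at 490 RPM in WT replicate 2 and at 400 and 288 RPM in the GIRK1 libraries. In FADS2, a desaturase, eGFP replicate 2 (89.7 RPM) also lay 2-fold above WT replicate 2 (44.6 RPM), below the 404 RPM of eGFP replicate 1. PNPLA3, ELOVL6, FADS1 and LPIN1 completed the set with folds of 5.28, 2.50, 2.45 and 2.14.

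**Figure D3:**
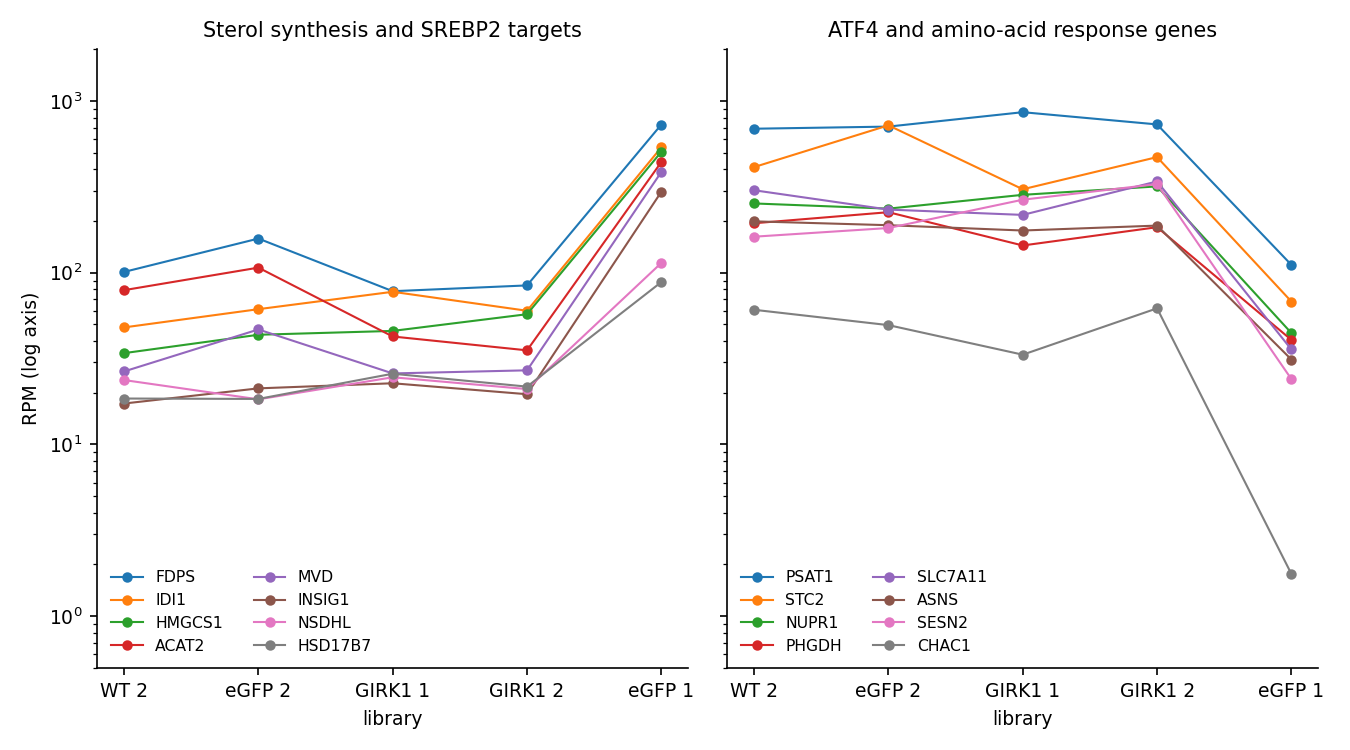
RPM (log axis) in WT replicate 2, eGFP replicate 2, both GIRK1 libraries and eGFP replicate 1 for the 8 sterol genes and the 8 ATF4 list genes with the largest ratios; lines join the values of a gene. INSIG1 lies between 17.3 and 22.7 RPM in 4 libraries and at 296 RPM in eGFP replicate 1, and CHAC1 between 33.3 and 62.0 RPM in the 4 and at 1.76 RPM in eGFP replicate 1.

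The ATF4 and amino acid response list showed the largest negative median. Of 27 members kept, 22 were at least 2-fold lower in eGFP replicate 1 and 0 higher, with a median log2 ratio of -1.87. The median against WT replicate 2 was -1.61 for eGFP replicate 1 and -0.06 for eGFP replicate 2, and in the GIRK1 pair it was -0.11. In 17 of the 27, eGFP replicate 1 lay at least 2-fold below each of the 4 other libraries, against 3.69% of all genes kept. CHAC1, an enzyme that degrades glutathione, had 9 reads (1.76 RPM) in eGFP replicate 1 and 507 reads (49.5 RPM) in eGFP replicate 2. It was at 60.8 RPM in WT replicate 2 and at 33.3 and 62.0 RPM in the GIRK1 libraries, and the fold between the eGFP libraries was 28.2 (14.7 to 62.1). The few reads in eGFP replicate 1 make this the least precise fold of the list members named here.

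The list holds enzymes of serine and asparagine synthesis. PHGDH, the first enzyme of serine synthesis, was at 40.6 RPM in eGFP replicate 1, 225 in eGFP replicate 2, 194 in WT replicate 2, and 144 and 184 in the GIRK1 libraries. PSAT1, the next enzyme of that route, was at 111 RPM in eGFP replicate 1 and between 689 and 860 RPM in the other 4 libraries. Asparagine synthetase ASNS was at 31.2 RPM in eGFP replicate 1 and between 176 and 199 RPM in the others, a fold of 6.06 (5.16 to 7.17) between the eGFP libraries. In each of these 3 genes, named for their large ratios, eGFP replicate 1 lay at least 2-fold below each of the other 4 libraries. Among all genes kept, 3.69% did so. MTHFD2, a mitochondrial folate enzyme, was at 264 RPM in eGFP replicate 1, 782 in eGFP replicate 2 and 764 in WT replicate 2.

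Amino acid transporters and stress regulators followed the same order. SLC7A11, the cystine-glutamate exchanger, was 6.52-fold (5.6 to 7.61) lower in eGFP replicate 1, with 35.7 against 233 RPM. SLC7A5 and SLC3A2, the chains of a large neutral amino acid transporter, were at 2163 and 472 RPM in eGFP replicate 1 and at 4458 and 1030 RPM in eGFP replicate 2. SLC7A5 was 2.06-fold lower (2.02 to 2.10), and neither eGFP library was 2-fold from WT replicate 2 at 4078 RPM. STC2, a secreted glycoprotein, was at 67.9 RPM in eGFP replicate 1, 721 in eGFP replicate 2, 412 in WT replicate 2, and 306 and 471 in the GIRK1 libraries. The pseudokinase gene TRIB3 was at 282, 1084 and 1250 RPM in eGFP replicate 1, eGFP replicate 2 and WT replicate 2. SESN2, a leucine sensor, NUPR1, a stress-induced nuclear protein, and ATF3, a transcription factor, were 7.57-fold, 5.31-fold and 4.79-fold lower.

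ATF4 itself had a log2 ratio of -0.84, DDIT4 of -0.26 and SLC38A2 of -0.66, and CEBPB of 0.55 was the sole positive member. DDIT3 and SLC6A9 did not reach the read minimum, with 0 reads each in eGFP replicate 1 and 3 and 44 reads in eGFP replicate 2. INHBE and GDF15, which stand outside this list, are also known from stress responses. INHBE, an activin beta subunit, had 0 reads in eGFP replicate 1 and 71 in eGFP replicate 2. With 3 reads put in place of 0 it was 11.9-fold lower, and its 95% counting interval reached down to 9.39-fold. GDF15, a stress-induced cytokine on the p53 list, was at 10.5 RPM in eGFP replicate 1, 70.7 in eGFP replicate 2, 91.1 in WT replicate 2, and 91.2 and 106 in the GIRK1 libraries.

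Aminoacyl-tRNA synthetases, which charge tRNAs with their amino acids, had a median of -0.82. Of the 20 synthetases kept, 7 were at least 2-fold lower in eGFP replicate 1 (4 with TMM scaling) and 0 higher, and 16 of 20 had a negative log2 ratio. MARS, the methionine enzyme, was at 103 RPM in eGFP replicate 1 and between 491 and 551 RPM in the other 4 libraries, a fold of 4.84 (4.42 to 5.30). WARS, for tryptophan, was at 60.7 and 264 RPM in eGFP replicates 1 and 2, and AARS, for alanine, at 119 and 473 RPM. YARS, FARSB, NARS and IARS were between 2.03-fold and 2.59-fold lower. For NARS neither eGFP library was 2-fold from WT replicate 2.

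Genes of the unfolded protein response, which adjusts folding capacity in the endoplasmic reticulum, had a median of -0.64. Of 25 kept, 7 were at least 2-fold lower and 0 higher, and in those 7 eGFP replicate 1 lay at least 2-fold below each of the other 4 libraries. Among all genes kept, 3.69% lay below each in that way. XBP1, a transcription factor of this response, was at 125 RPM in eGFP replicate 1, 431 in eGFP replicate 2, 532 in WT replicate 2, and 452 and 433 in the GIRK1 libraries. SEL1L, an adaptor of the degradation machinery, was 3.34-fold (2.84 to 3.95) lower and the sensor gene ERN1 2.89-fold (1.81 to 4.83), the latter from 21 reads in eGFP replicate 1. DNAJB9, SEC24D, HERPUD1 and HYOU1 were between 2.03-fold and 2.55-fold lower. The chaperone HSPA5 had a log2 ratio of -0.98, just short of 2-fold.

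Of 25 hypoxia-induced genes kept, 11 were at least 2-fold higher and 1 lower, with a median of 0.90 (0.74 and 0.09 against WT replicate 2 for eGFP replicates 1 and 2). STC1, a secreted glycoprotein, had the largest ratio of all genes, with 327 reads (63.8 RPM) in eGFP replicate 1, 6 reads (0.586 RPM) in eGFP replicate 2 and 20 reads (1.25 RPM) in WT replicate 2. STC1 reached the read minimum only through eGFP replicate 1. Its fold was 109 with a wide interval of 49.4 to 299, and the GIRK1 libraries stood at 0.360 and 0 RPM. ANGPTL4, an inhibitor of lipoprotein lipase, was at 288 RPM in eGFP replicate 1, 23.9 in eGFP replicate 2, 12.7 in WT replicate 2, and 9.90 and 6.57 in the GIRK1 libraries. NDRG1 was at 1465 RPM against 267, 191, 153 and 108 RPM in the same order.

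For part of this list eGFP replicate 2 also stood above the reference. CA9, a carbonic anhydrase that is a standard hypoxia marker, was at 59.3 RPM in eGFP replicate 1, 14.8 in eGFP replicate 2, 6.05 in WT replicate 2, and 0.900 and 0.290 in the GIRK1 libraries. ADM, encoding adrenomedullin, and PFKFB4, a regulator of glycolysis, were also highest in eGFP replicate 1 and then in eGFP replicate 2 among the 3 libraries compared, at 44.3, 13.5 and 5.55 RPM and at 19.1, 3.22 and 1.5 RPM. Like STC1, PFKFB4 reached the read minimum only through eGFP replicate 1. BHLHE40, a transcriptional repressor, was 7.12-fold (6.11 to 8.33) higher, with 148 and 20.8 RPM, but the GIRK1 libraries lay between, at 51.0 and 63.9 RPM. The member that was lower, VEGFA, was singled out after its values were seen and had 236 reads in eGFP replicate 1 and 1298 in eGFP replicate 2, a log2 ratio of -1.46.

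Glycolytic enzymes had 5 of 16 members at least 2-fold higher (3 after a correction for amplicon GC content) and 0 lower, with a median of 0.45. LDHA, the lactate dehydrogenase chain, was at 3767 RPM in eGFP replicate 1, 1146 in eGFP replicate 2, 1081 in WT replicate 2, and 828 and 752 in the GIRK1 libraries. The aldolase ALDOC was 3.60-fold (3.19 to 4.06) higher, PGK1 2.43-fold and GPI 2.02-fold. The respiratory chain list, for comparison, had 0 of 51 members 2-fold apart in either direction and a median of 0.03.

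Heat shock proteins, the cytosolic chaperones induced by protein damage, had 9 of 20 members at least 2-fold higher and 0 lower, with a median of 0.53. HSPA1A was at 435 RPM in eGFP replicate 1, 44.8 in eGFP replicate 2, 68.0 in WT replicate 2, and 170 and 111 in the GIRK1 libraries. The near-identical copy HSPA1B was 8.61-fold higher, and reads can be shared between these copies. HSPA8, the constitutive chaperone, was at 1772 and 414 RPM in eGFP replicates 1 and 2, and at 1021 and 873 RPM in the GIRK1 libraries. DNAJA1 was at 177 RPM in eGFP replicate 1, above the 76.2 RPM of eGFP replicate 2, but the GIRK1 libraries stood higher at 373 and 358 RPM. In 3 of the 20 heat shock genes eGFP replicate 1 lay 2-fold from each of the 4 other libraries, against 570 of all 9220 genes kept. AHSA1, HSP90AA1, HSPH1 and DNAJB1 were between 2.28-fold and 2.61-fold higher. A heat shock element pair (TTCNNGAA) was found in 4 of 19 promoter windows of the list (21.1%) and in 5.83% of all genes kept. It was in 4.56% of the windows of genes at least 2-fold higher in eGFP replicate 1 and in 8.80% of those lower. The share over all 27305 RefSeq windows was 7.84%. The stretch before HSPA8 (chr11:123062159-123062216, minus strand) carries it in capitals.
HSPA8: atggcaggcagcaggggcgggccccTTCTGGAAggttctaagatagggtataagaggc

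Metallothioneins, small cysteine-rich proteins that bind zinc and copper, were higher in 4 of 4 members kept, out of 12 on the list. MT2A, among the 8 genes of highest level that were higher, was at 32170 RPM in eGFP replicate 1, 10226 in eGFP replicate 2, 5712 in WT replicate 2, and 4522 and 4135 in the GIRK1 libraries. MT1E was at 1034 RPM against 392 and 416, and MT1F at 18.1 RPM against 7.04 and 7.42. MT1L was 20.0-fold (16.2 to 25) higher, with 184 against 9.19 RPM. The list median was 1.53 in the eGFP pair and 1.26 in the GIRK1 pair. In the GIRK1 pair 3 of the 4 members were also at least 2-fold apart and MT2A was not, against 184 of all 9220 genes kept. Members resemble each other in sequence, which leaves the split of reads among them uncertain. The metal response core TGCNCNC stands in the MT2A promoter at chr16:56608505-56608561 (plus strand), and 63.9% of the windows of all genes kept hold these letters.
MT2A: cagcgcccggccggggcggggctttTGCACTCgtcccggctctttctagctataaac

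Replication-dependent histones, made in S phase from transcripts that mostly lack a poly(A) tail, had 17 of 39 members at least 2-fold higher in eGFP replicate 1 and 0 lower, with a median of 0.91. HIST1H1B, a linker histone gene, was at 83.1 RPM in eGFP replicate 1, 20.1 in eGFP replicate 2, 16.2 in WT replicate 2, and 19.4 and 10.2 in the GIRK1 libraries. HIST1H2AK and HIST1H2AB were 5.72-fold (4.31 to 7.67) and 4.96-fold (3.99 to 6.21) higher. Histone genes are close copies of each other, so reads may be split among them. S-phase genes had 8 of 37 higher and 0 lower, with a median of 0.43. In the GIRK1 pair the S-phase list had a median of 0.34, with 0 members 2-fold apart, and the histone list a median of 0.24. UHRF1, which maintains DNA methylation, was at 47.8 RPM in eGFP replicate 1 and between 8.80 and 12.5 RPM in the other 4 libraries. MCM4 and RRM2, for replication licensing and deoxynucleotide supply, were 3.06-fold and 2.99-fold higher, and FEN1 2.79-fold. The G2/M list, in contrast, had a median of -0.00 over 52 genes with 0 higher and 1 lower, TMPO at 11.7 against 24.6 RPM. The H1F0 gene, a linker histone that is not tied to replication, lay on the other side, at 25.9 RPM in eGFP replicate 1 and 234 in eGFP replicate 2.

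Of 14 spliced host genes and abundant long non-coding RNAs kept, 6 were at least 2-fold lower and 0 higher, with a median of -0.85 (0.18 in the GIRK1 pair). GAS5, a host of small nucleolar RNAs, was at 462 RPM in eGFP replicate 1, 1058 in eGFP replicate 2, 1327 in WT replicate 2, and 1333 and 1386 in the GIRK1 libraries. SNHG1, SNHG15, SNHG12 and SNHG8 were between 2.11-fold and 2.85-fold lower, and H19 2.76-fold. Cytosolic ribosomal proteins had 0 of 69 members 2-fold apart and a median of -0.19, and ribosome biogenesis genes 2 of 40 lower and a median of -0.35. EIF1, a factor of start codon selection, was at 452 RPM in eGFP replicate 1, 2481 in eGFP replicate 2, 2019 in WT replicate 2, and 2491 and 3146 in the GIRK1 libraries, which is 5.49-fold lower (5.26 to 5.73) in the eGFP pair.

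**Figure D4:**
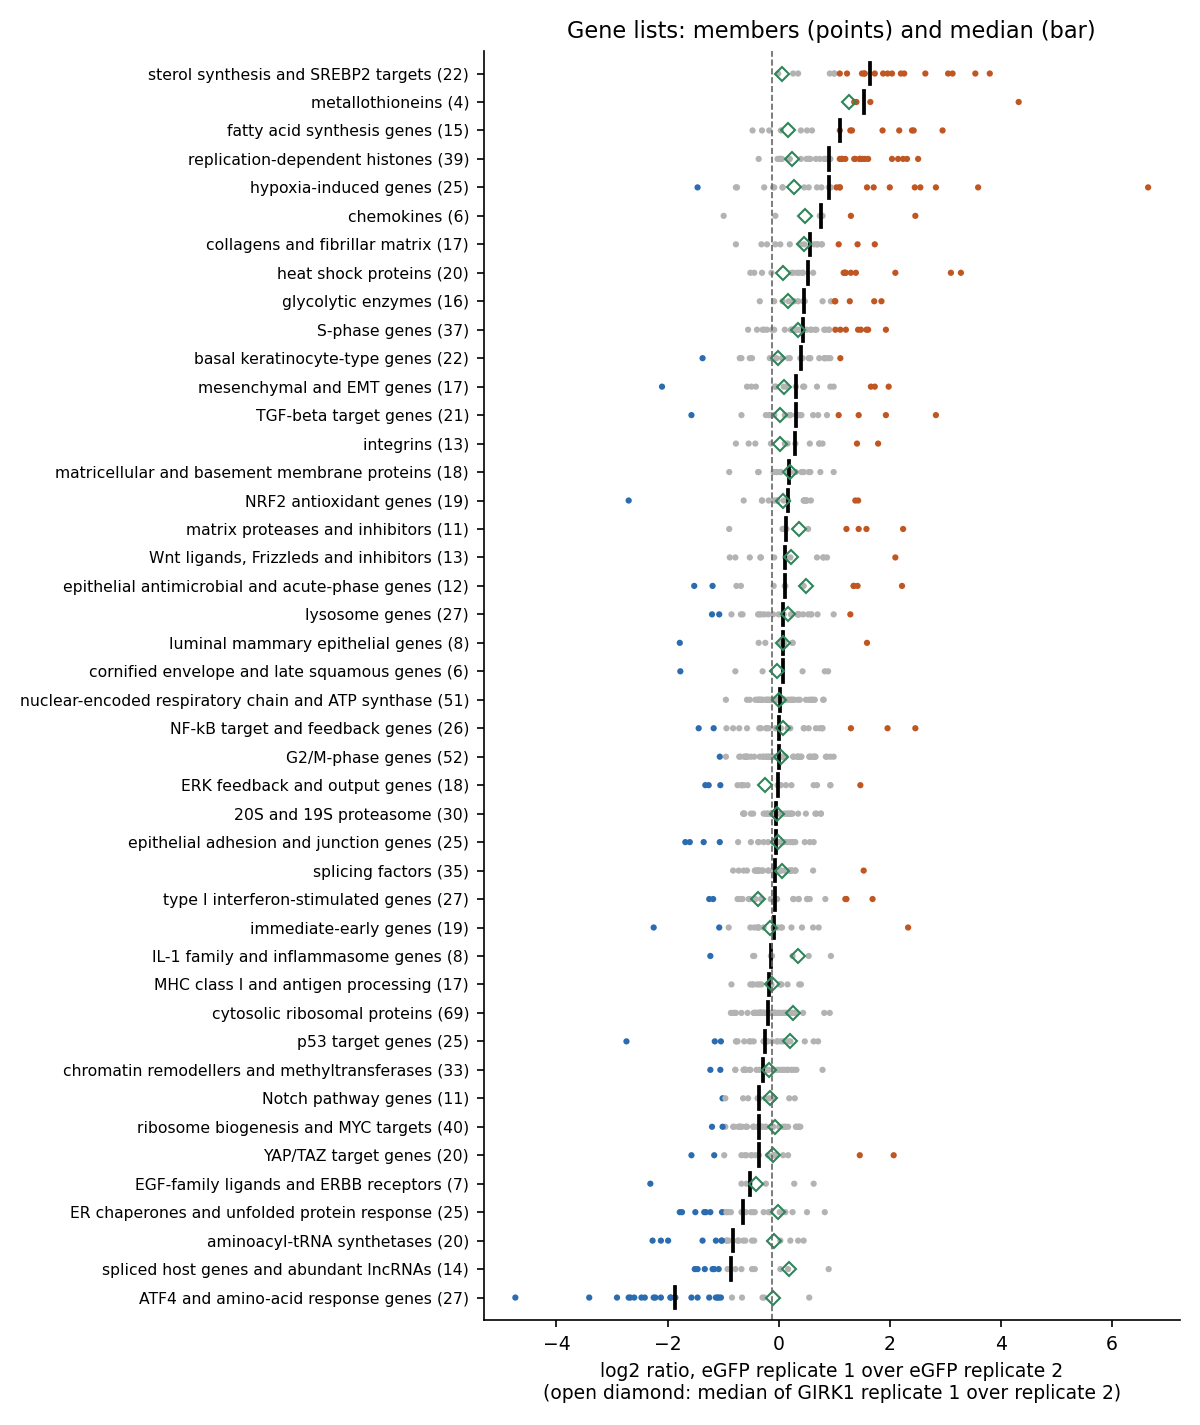
Log2 ratio of eGFP replicate 1 to eGFP replicate 2 for each member kept (points, number in brackets) of the 44 gene lists, ordered by the median (black bar); orange and blue points are at least 2-fold higher or lower, grey points are within 2-fold, open diamonds are the list median in the GIRK1 pair and the dashed line is the median of all genes, -0.12. The sterol list is at the top with a median of 1.64 and the ATF4 list at the bottom with -1.87.

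The counts of the immune and signalling lists are given beside the 4.11% of all genes that were higher and the 7.14% that were lower. Chemokines had 2 of 6 higher, CXCL1 at 140 against 25.4 RPM and IL8 at 63.0 against 25.5 RPM, and a median of 0.76. With a read minimum of 10, 9 chemokines were kept and their median was -0.06. NF-kB targets had 3 of 26 higher and 2 lower (median -0.00), and TNFAIP3, which dampens NF-kB, was 3.89-fold (3.31 to 4.58) higher. Interferon-stimulated genes had 3 of 27 higher and 2 lower (-0.06), MHC class I genes 0 of 17 either way (-0.18), IL-1 family genes 0 of 8 higher and 1 lower (-0.13) and antimicrobial and acute-phase genes 4 of 12 higher and 2 lower (0.11). Of the EGF family, 1 of 7 was lower, the ligand HBEGF at 37.3 against 185 RPM, and the median was -0.52. ERK output genes had 1 of 18 higher and 3 lower (-0.02), immediate-early genes 1 of 19 higher and 2 lower (-0.09), YAP/TAZ targets 2 of 20 higher and 2 lower (-0.36) and TGF-beta targets 4 of 21 higher and 1 lower (0.31). Notch genes had 0 of 11 higher and 1 lower (-0.35), Wnt genes 1 of 13 higher and 0 lower (0.12), p53 targets 0 of 25 higher and 3 lower (-0.24) and NRF2 targets 2 of 19 higher and 1 lower (0.17). In the GIRK1 pair 184 of all 9220 genes kept were at least 2-fold apart. Among them were 5 of 12 antimicrobial and acute-phase genes, 4 of 26 NF-kB targets and 4 of 21 TGF-beta targets. There NRF2 targets had 2, chemokines and IL-1 family genes 1 each, and the other lists of this paragraph 0.

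The epithelial state and matrix lists are set beside the same shares of all genes, 4.11% higher and 7.14% lower. Basal keratinocyte genes had 1 of 22 higher (3 with TMM scaling) and 1 lower (median 0.41), SFN at 428 against 199 RPM and the desmosomal cadherin DSG3 at 47.8 against 124 RPM. Luminal genes had 1 of 8 higher and 1 lower (0.07), cornified envelope genes 0 of 6 higher and 1 lower (0.07), and mesenchymal genes 3 of 17 higher (5 with TMM) and 1 lower (0.31). Junction genes had 0 of 25 higher and 4 lower (-0.05), including the claudins CLDN1, at 175 against 560 RPM, and CLDN7, at 36.9 against 112 RPM. Collagens had 3 of 17 higher and 0 lower, with a median of 0.57 against 0.46 in the GIRK1 pair. LOXL2, a collagen cross-linking enzyme, was at 191 RPM in eGFP replicate 1, 57.5 in eGFP replicate 2, 22.4 in WT replicate 2, and 4.59 and 1.26 in the GIRK1 libraries. Matrix proteases and inhibitors had 4 of 11 higher and 0 lower (0.14), with the plasminogen activator PLAT at 162 against 34.3 RPM, and integrins 2 of 13 higher and 0 lower (0.30). Matricellular proteins had 0 of 18 either way (0.18), the proteasome 0 of 30 (-0.04), splicing factors 1 of 35 higher and 0 lower (-0.06), chromatin genes 0 of 33 higher and 2 lower (-0.28) and lysosome genes 1 of 27 higher and 2 lower (0.08).

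Genes with large ratios also stood outside the lists. FGFBP1, a carrier of fibroblast growth factors, was at 518 RPM in eGFP replicate 1, 19.9 in eGFP replicate 2, 16.4 in WT replicate 2, and 8.01 and 16.0 in the GIRK1 libraries, a fold of 26.0 (22.5 to 30.1). CASP14, a caspase of cornifying keratinocytes, was at 268 RPM in eGFP replicate 1, 16.2 in eGFP replicate 2 and 3.93 in WT replicate 2, and at 0.0900 and 0 RPM in the GIRK1 libraries. CDA, the cytidine deaminase, was at 168 and 15.2 RPM in eGFP replicates 1 and 2, with 0 reads in WT replicate 2 and in both GIRK1 libraries. FAM111B and FAM20C, a secretory pathway kinase, were 13.0-fold (8.00 to 22.4) and 8.14-fold (6.46 to 10.3) higher. FAM111B reached the read minimum only through eGFP replicate 1.

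On the low side, PAPPA2, a protease of insulin-like growth factor binding proteins, had 0 reads in eGFP replicate 1 and 89 in eGFP replicate 2. With 3 reads put in place of 0 it was 14.9-fold lower. CLGN, a testis-type chaperone of the endoplasmic reticulum, had 2 reads against 230. CYP1B1, a cytochrome P450 that oxidises estrogens and polycyclic compounds, was at 1.76 RPM in eGFP replicate 1, 39.2 in eGFP replicate 2, 38.2 in WT replicate 2, and 30.3 and 24.9 in the GIRK1 libraries. MAOA, the monoamine oxidase, was at 2.15 RPM against 41.0, 31.9, 38.0 and 22.6 RPM in the same order. The netrin receptor gene UNC5B was at 7.61 RPM in eGFP replicate 1 and between 114 and 177 RPM in the other 4 libraries. SLC1A4, a neutral amino acid transporter, was at 6.83 RPM against 66.1 RPM in eGFP replicate 2. LAMP3 had 2 reads against 59, and TSLP 2 against 50. Differences of at least 8-fold occurred on both sides, in 14 genes that were higher and 21 that were lower.

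The most abundant genes that separated the replicates included structural proteins. Actin ACTB was at 8981 RPM in eGFP replicate 1, 3752 in eGFP replicate 2, 3746 in WT replicate 2, and 2615 and 2730 in the GIRK1 libraries. S100A2, a calcium-binding protein of basal epithelium, was at 18503, 7330 and 6980 RPM in eGFP replicate 1, eGFP replicate 2 and WT replicate 2. The tubulins TUBA1B and TUBB were 3.50-fold (3.40 to 3.60) and 3.04-fold (2.94 to 3.14) higher, and the lectin LGALS1 2.43-fold. RPM values are shares of a library, so a larger share for these genes lowers the share of all others.

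Few genes pointed the other way. Only eGFP replicate 2 departed from WT replicate 2 in 17 genes, 12 of them with eGFP replicate 1 above it. HIST1H2BC was at 198 RPM in eGFP replicate 1, 64.6 in eGFP replicate 2, 132 in WT replicate 2, and 100 and 52.4 in the GIRK1 libraries. PPM1F, a phosphatase, was at 29.1, 8.79 and 20.6 RPM and HDGFRP2 at 42.5, 16.5 and 42.5 RPM in eGFP replicate 1, eGFP replicate 2 and WT replicate 2. Among the 5 that were higher in eGFP replicate 2, the lysosomal hexosaminidase HEXA was at 8.19, 17.3 and 6.92 RPM in the same order. The counting interval of HEXA in eGFP replicate 2 over replicate 1 was 1.5 to 3.03.

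In the 36 genes that departed on the same side in both eGFP libraries, eGFP replicate 2 lay between WT replicate 2 and eGFP replicate 1. On the high side, with 23 genes, INHBA, an activin subunit, was at 37.1, 9.67 and 3.12 RPM in eGFP replicate 1, eGFP replicate 2 and WT replicate 2, and the Wnt inhibitor DKK1 at 27.3, 6.35 and 2.62 RPM. ARHGDIB was at 71.0, 23.9 and 8.98 RPM, and the GIRK1 libraries stood at 6.75 and 12.2 RPM. On the low side, with 13 genes, MAP1B, a microtubule-associated protein, had 1, 58 and 198 reads, and FAM129A had 0, 17 and 171 reads. KRT10, a keratin of differentiated epidermis, was at 0.975, 3.62 and 10.5 RPM, with 26.9 and 58.0 RPM in the GIRK1 libraries.

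The 2-fold limit falls within a continuous distribution. Just inside on the high side lay CHMP1A, DAZAP2, FSCN1, MCM10 and TAGLN2, with folds of at most 2.01, and just outside CCNA2, FANCA, NOL3, PRDM1 and STK38. On the low side the nearest genes inside were GCFC2, MED19, PNO1, PTPN2 and TYMP and outside ATAD1, FOXC1, KIAA1468, MAK16 and MSTO2P, the last of these at a log2 ratio of -0.99. For FANCA, with 84 reads in each eGFP library, the interval was 1.46 to 2.73. Among genes with a mean of 50 to 100 reads 20.4% were at least 2-fold apart, against 8.43% of those with 500 to 1000 reads and 12% of those with 5000 or more.

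Amplicon composition moved with the difference. Genes were split into 5 groups by GC content. Of the 1853 genes with the lowest GC content, 34 were at least 2-fold higher and 248 lower in eGFP replicate 1, with a median log2 ratio of -0.35. Of the 1840 with the highest GC content, 119 were higher and 97 lower, with a median of 0.02. In the GIRK1 pair the medians of the 5 groups lay between -0.01 and 0.05. Across the 9220 genes, which share their libraries and are not independent, the correlation of the log2 ratio with GC content was 0.19, with amplicon length 0.10 and with mean log2 RPM 0.03. After a correction by a smooth curve on GC content, 356 genes were higher and 556 lower, the sterol list had a median of 1.78 and the ATF4 list of -2.00. The share of reads that span their amplicon from end to end was 93.0% in eGFP replicate 1 and 92.9% in eGFP replicate 2.

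**Figure D5:**
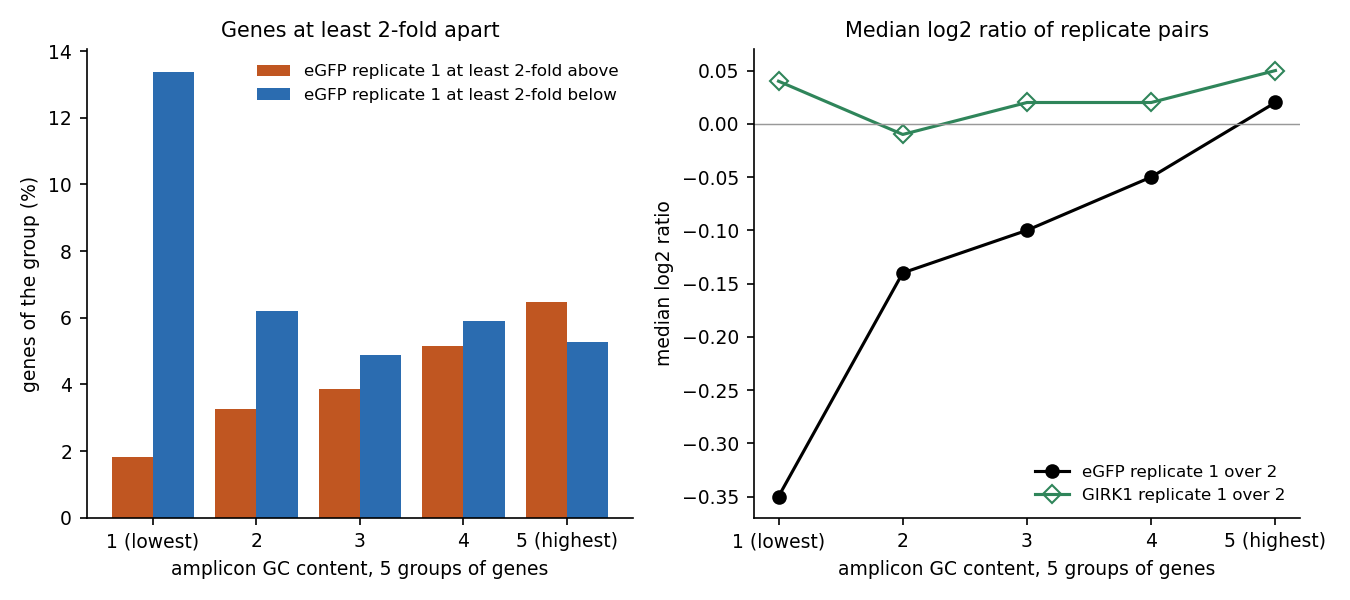
Left, percent of the genes in each of 5 groups by amplicon GC content that were at least 2-fold higher (orange) or lower (blue) in eGFP replicate 1; right, median log2 ratio of the eGFP pair (black) and the GIRK1 pair (green) per group. The group of lowest GC content holds 248 lower genes and a median of -0.35 in the eGFP pair, while the GIRK1 medians stay between -0.01 and 0.05.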

How the data were processed

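RNA from 6 MCF10A libraries (2 each of WT, eGFP and GIRK1) was sequenced on a human transcriptome amplicon panel, with 1 amplicon a gene. The authors mapped the reads to the panel's own human transcriptome reference with the Ion Torrent AmpliSeq RNA workflow and deposited, for each amplicon, raw read counts and RPM, the count scaled to the library total. The workflow's version is not given in the sources used here. From the deposited counts, RPM was recomputed over the 20802 genes (10 spike-in amplicons with 0 reads were left out), and the log2 ratio was taken after adding 0.5 reads. Genes were kept when the 3 libraries compared held 50 or more reads on average, and 2-fold was the size that called a gene apart. Counting intervals are exact binomial, conditional on the sum of both counts (scipy 1.17.1). TMM (edgeR 4.0.16) and DESeq2 1.42.0 served for scaling factors only. No test was made. The named genes are the 15 largest ratios each way, up to 4 members a list (8 where its median passes 0.5), the 8 of highest RPM each way, the 5 on either side of the 2-fold limit, KCNJ3 and markers. Genes in which eGFP replicate 2 departed and list members within 2-fold were singled out after their values were seen. The members and lists were chosen with earlier results of these data known. Totals of 5126930 to 16040556 reads set the precision. Some list members are not reported here.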

Additional observations from a re-analysis of the deposited data

How the results depend on the processing

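No paired analysis was possible because each comparison sets 1 library against 1 and comes from no test, and for the same reason no replicate could be left out. Of 38 recomputed counts and shares of the whole comparison, 23 stayed within 1.5 times (counts) or within the 95% binomial interval (shares). The share of higher genes among those apart (36.5% with RPM) was 51.3% with TMM, 51.1% with DESeq2 size factors, 47.2% with no read minimum, 41.7% with 5 reads added and 47.1% with the counting interval wholly past 2-fold. Higher and lower genes numbered 644 and 984 at a minimum mean of 10 reads, 196 and 372 at 200 reads, 1416 and 1585 with no minimum, and 201 and 226 by the counting interval. The share in which only eGFP replicate 1 departed (74.2%) was 78.7% at 200 reads, 70.7% after thinning to its depth and 60.8% with the GIRK1 mean as reference. Of 220 list shares, 211 stayed within their binomial interval, which is wide for short lists, and 8 left it. By size, 44 moved over 1.5 times, 36 of them by at most 1 member. The other 8 were the synthetases, from 35.0% to 20% lower with TMM, the glycolytic enzymes, from 31.2% to 18.8% higher after GC correction, the mesenchymal list, from 17.6% to 29.4%, and the basal keratinocyte list, from 4.55% to 13.6%, each with TMM and DESeq2 factors, and, at a minimum of 10 reads, NF-kB targets, from 7.69% to 13.8% lower, and cornified envelope genes, from 0% to 20% higher. Of lists with a median of at least 0.5 in size, 1 changed its sign, the chemokines at a minimum of 10 reads, with 22.2% of members higher and a median of -0.06, where 9 rather than 6 were kept. Depth limits genes near 50 reads most. At a lower minimum more genes were compared, and a larger share of them was apart. Apart were 1037 of 9220 genes at 50 reads, 1628 of 11096 at 10 reads and 3001 of 14464 with no minimum. The cause of these and the other shifts was not tested.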
